A study of Zea mays with 54 samples.

Results

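The genes described here are 4 maize genes of lipid and isoprenoid metabolism, gl8, fps1, FAD8 and PLTP, of the 866 genes that the annotation of the arrays pairs with a probe of a single gene. A spotted probe was taken as theirs where its single annotated gene carried one of these names, as symbol or RefSeq synonym, in any case. This gave 13 of the 49280 cDNA probes on 3 array designs: 2 for gl8, 1 for fps1, 3 for FAD8 and 7 for PLTP. Values were present for 8 of the 13. The 5 probes listed with no value were 1 of PLTP on slides 1 to 6, 2 of PLTP and 1 of FAD8 on slides 7 to 12, and 1 of PLTP on slides 13 to 18. The remaining probes were 1 of gl8 on slides 1 to 6, 1 of FAD8 on slides 7 to 12, and 6 on slides 13 to 18, of which gl8, fps1 and FAD8 had 1 each and PLTP had 3.

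Seedlings of the maize inbred line B73 supplied all RNA at 14 days, from the vegetative shoot apical meristem, or SAM, with no mutant and no treatment. One group was the L1, the single outer cell layer from which the epidermis arises, and the other was the L2, here the corpus below it, both taken by laser capture from paraffin sections of tissue blocks that held the meristem. Each biological replicate pooled 5 to 10 SAMs and began from about 1 ng of RNA per layer, which was amplified. The amplified L1 and L2 RNA were hybridised together, L1 in Cy3 on odd slides and in Cy5 on even ones, on 18 slides, 6 of each design. The study asked which transcripts differ in amount between these layers.

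The outer surface of a shoot is sealed by a cuticle of cutin and wax, which epidermal cells make and export. Wax begins with fatty acids that an elongase complex in the endoplasmic reticulum lengthens by repeated rounds of condensation, reduction, dehydration and reduction. The maize gene gl8 (glossy8) encodes the ketoacyl reductase of that complex, and its mutants have glossy seedling leaves that lack normal wax. PLTP is named for a phospholipid transfer protein. Plant lipid transfer proteins are small secreted proteins that bind lipids, and many are made in the epidermis. FAD8 is the name of an omega-3 desaturase which, in Arabidopsis, adds the last double bond to fatty acids of plastid membranes. The gene fps1 encodes farnesyl diphosphate synthase, which makes the precursor of sterols, sesquiterpenes and the farnesyl groups attached to proteins.

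Values are L1 minus L2 in log units, as the mean of the 3 readings of a slide (lettered L, M and H, with no meaning given in the sources used here), so a positive value means a larger share of the amplified RNA in L1. The log base is not given either, so folds are printed for base 2 and for the natural logarithm. No label states the dye in the numerator. Cy5 is likely, from the layer genes ocl1, ocl4 and kn1, and with Cy3 as the numerator every sign below would turn. Only ratios were deposited, so no level in either layer can be given. In pooled tissue, fewer cells that express a gene and less RNA per cell cannot be told apart.

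On slides 13 to 18, 1 probe each of fps1, FAD8 and PLTP passed the test and was higher in L1, while the other 2 PLTP probes there did not pass. Calls required an adjusted p below 0.05 (limma, Benjamini-Hochberg over all probes of its design). These were 3 of the 6 probes of the design, against a background of 1.57% of its 14270 probes called in either direction and 1.02% called higher in L1. There, 4 of the 6 were above 0 on all 6 slides, against 4.49% of all probes. On slides 1 to 6 the single probe, of gl8, was not called (background 2.84%), and on slides 7 to 12 neither was the single probe, of FAD8 (background 1.43%). Over the 8 probes the median difference was 0.39, where the medians of all probes of the 3 designs lay between -0.016 and 0.00025. The genes were chosen with earlier results of these slides known, so these counts are a description.

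**Figure D1:**
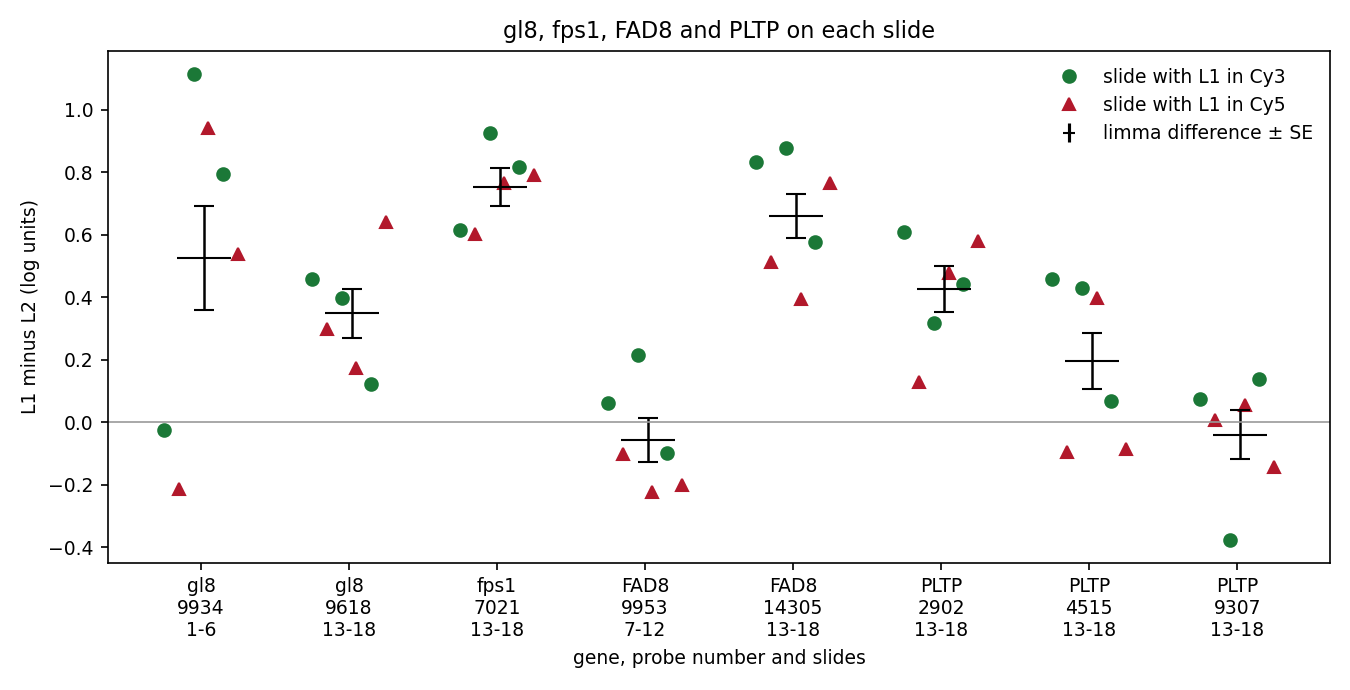
L1 minus L2 in log units (vertical axis) for the 8 probes with values (horizontal axis: gene, probe number, slides). Each point is 1 slide in slide order from left to right, circles with L1 in Cy3 and triangles with L1 in Cy5, and the bar is the limma difference with its SE. The probes of fps1, FAD8 (14305), PLTP (2902) and gl8 (9618) on slides 13 to 18 lie above 0 on all 6 slides, and the gl8 probe of slides 1 to 6 has 2 slides below 0.

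For fps1, the entry to sterol and sesquiterpene synthesis, the values on slides 13 to 18 were 0.61, 0.60, 0.93, 0.76, 0.82 and 0.79 (probe 7021). All 6 slides were higher in L1, and so were all 18 readings, of which the lowest was 0.49. The difference was 0.75 ± 0.060 (SE, n = 6 slides, limma adjusted p = 0.00166), with a 95% interval of 0.61 to 0.89, or 1.68-fold at base 2 and 2.12-fold with the natural logarithm. It ranked 57 of 14270 differences from the top. The mean was 0.79 (SD 0.158, n = 3) on the slides with L1 in Cy3 and 0.72 (SD 0.102, n = 3) on those with L1 in Cy5, so the orientations differed by less than the SD within either. The call held in all 17 alternatives tried, with differences from 0.72 to 0.80.

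The desaturase gene FAD8 was measured by 2 probes with different cDNA accessions on different designs, and they did not show the same difference. On slides 13 to 18, probe 14305 read 0.83, 0.51, 0.88, 0.39, 0.58 and 0.76. Every slide and all 18 readings were higher in L1. The difference was 0.66 ± 0.070 (SE, n = 6, limma adjusted p = 0.00652), with an interval of 0.50 to 0.82, or 1.58-fold at base 2 and 1.93-fold with the natural logarithm. It ranked 75 of 14270. With L1 in Cy3 the mean was 0.76 (SD 0.162, n = 3) and with L1 in Cy5 it was 0.56 (SD 0.190, n = 3). The dye term was not called (limma adjusted p = 0.804), as for all 14270 probes of the design. Its readings on a slide lay closest together of the 8 probes, with a median range of 0.064, and the call held in all 17 alternatives (0.61 to 0.71).

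On slides 7 to 12 the other FAD8 probe, 9953, read 0.06, -0.10, 0.22, -0.22, -0.10 and -0.20. Slides 7 and 9, both with L1 in Cy3, were above 0 and the other 4 below. The difference was -0.06 ± 0.070 (SE, n = 6, limma adjusted p = 0.758), with an interval of -0.22 to 0.11. That interval lies below the one of probe 14305. The 3 readings of slide 12 differed by 1.23 log units (L -0.98, M 0.25, H 0.14), and from the M readings alone the difference was 0.02 (adjusted p = 0.944). The L1 extract numbers 1 to 5 of the labels recur on both designs. Number by number, probe 9953 read 0.06, -0.10, 0.22, -0.22 and -0.20 where probe 14305 read 0.83, 0.51, 0.88, 0.39 and 0.58. Probe 14305 was the higher for each of these numbers. No test was made across the designs, whose tables were deposited separately, and no source used here says which FAD8 transcript each probe detects.

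**Figure D2:**
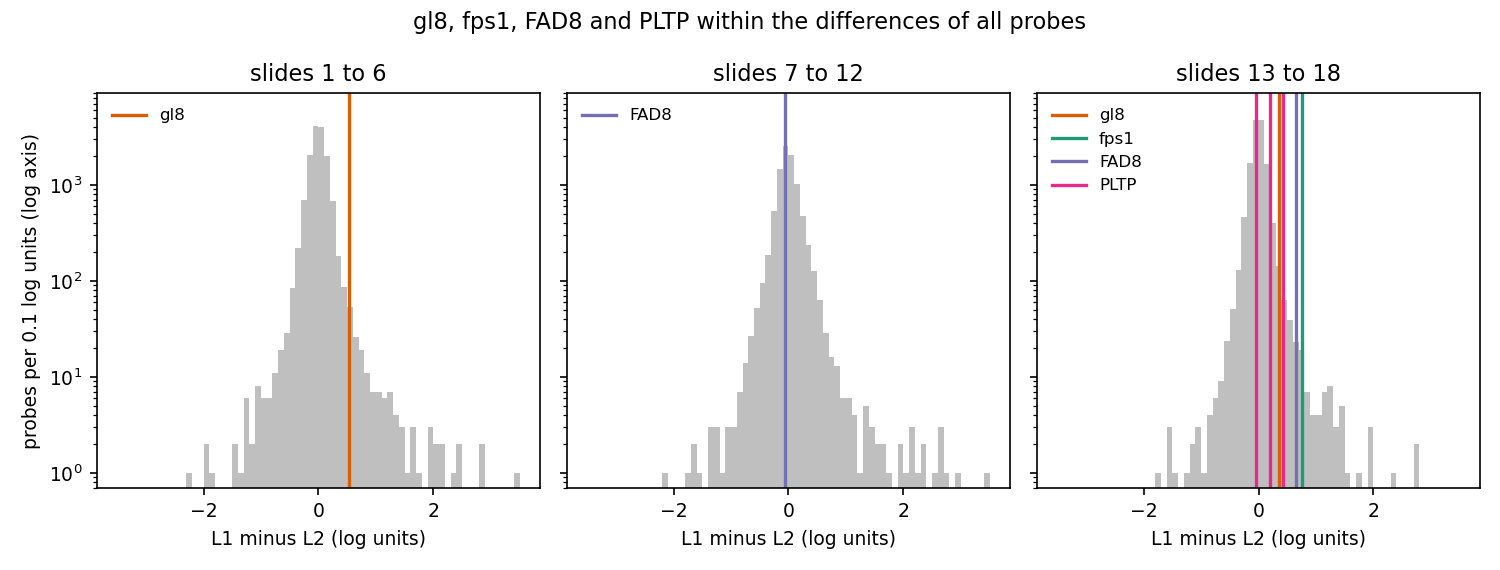
Number of probes per 0.1 log units of L1 minus L2 (log vertical axis) in each array design, with vertical lines at the probes of the 4 genes. On slides 13 to 18 the lines of fps1 (0.75) and FAD8 (0.66) lie in the upper tail, PLTP has lines at -0.04, 0.20 and 0.43, and on slides 7 to 12 the FAD8 line (-0.06) lies in the bulk of the probes.

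For PLTP, the lipid transfer protein gene, the 3 probes with values were all on slides 13 to 18 and came from different cDNA accessions. One of them was called higher in L1 and the other 2 were not called. Probe 2902 read 0.61, 0.13, 0.32, 0.48, 0.44 and 0.58. All 6 slides and 17 of 18 readings were higher in L1, with slide 14 lowest. The difference was 0.43 ± 0.074 (SE, n = 6, limma adjusted p = 0.0451), with an interval of 0.25 to 0.60, or 1.34-fold at base 2 and 1.53-fold with the natural logarithm. It ranked 174 of 14270. This call lay close to the threshold. It was kept without slide 14 (adjusted p = 0.0482) and lost without slide 13, 15, 16, 17 or 18 (adjusted p = 0.171, 0.129, 0.157, 0.151 and 0.0827), while the difference stayed between 0.38 and 0.49. Over all probes, calls also fell, from 224 to between 88 and 121, without slide 13, 14, 15, 16 or 17, but not without slide 18 (231).

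The reading mattered for this probe as well. On slide 13 the L reading was 0.08 where M and H were 0.86 and 0.89, and on slide 15 it was -0.07 against 0.55 and 0.48. From the L readings alone the difference was 0.19 ± 0.083 (limma adjusted p = 0.519), from M it was 0.55 ± 0.078 (adjusted p = 0.0301) and from H it was 0.54 ± 0.090 (adjusted p = 0.0502). The plot of each reading alone shows the gap for PLTP beside fps1 and FAD8 probe 14305, for which the 3 readings gave nearly one value.

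The second PLTP probe, 4515, read 0.46, -0.10, 0.43, 0.40, 0.07 and -0.09. Slides 14 and 18 were below 0 and the other 4 above, and 12 of its 18 readings were higher in L1. The difference was 0.20 ± 0.089 (SE, n = 6, limma adjusted p = 0.416; interval -0.01 to 0.40). The third, 9307, read 0.07, 0.01, -0.38, 0.05, 0.14 and -0.14. Slides 15 and 18 were below 0. Its difference was -0.04 ± 0.078 (adjusted p = 0.879; interval -0.22 to 0.14), and without slide 15 it was 0.04 (adjusted p = 0.906). Readings within a slide differed by a median of 0.634 for probe 4515 and 0.286 for probe 9307, sizes as large as the differences themselves.

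On the same 6 slides the PLTP probes could be set against each other. Probe 2902 exceeded probe 9307 on 6 of 6 slides, by 0.47 (SD 0.232, exact sign-flip permutation test, two-sided, p = 0.03125, adjusted over 3 pairs p = 0.09375). This is the smallest p that 6 slides allow. It exceeded probe 4515 on 5 of 6 slides by 0.23 (SD 0.267, exact p = 0.09375, adjusted p = 0.141). Probe 4515 exceeded probe 9307 on 4 of 6 by 0.24 (SD 0.346, exact p = 0.21875). None of the 3 pairs passed after adjustment. A pair that alone reached the smallest p could not have passed over 3 pairs. The adjusted test therefore cannot decide whether the PLTP probes differ, nor does it show that they measure alike.

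The reductase gene gl8 was represented by 1 probe on each of 2 designs, and both carry the same cDNA accession. Neither was called, and both were near the top of their design. On slides 1 to 6, probe 9934 read -0.02, -0.22, 1.11, 0.94, 0.79 and 0.54. Slides 1 and 2 were below 0 and slides 3 to 6 well above it, and the low pair and the high slides each held both dye orientations. Slides 1 and 2 were both set against L2 extract 2, and slides 5 and 6 both against L2 extract 6. Whether the shared L2 extract bears on the low values was not tested. The difference was 0.52 ± 0.165 (SE, n = 6, limma adjusted p = 0.159, unadjusted p = 0.00976), with an interval of 0.16 to 0.89, or 1.44-fold at base 2 and 1.69-fold with the natural logarithm. It ranked 145 of 14401.

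On slides 13 to 18 the gl8 probe, 9618, read 0.46, 0.30, 0.40, 0.17, 0.12 and 0.64. All 6 slides and all 18 readings were higher in L1. The difference was 0.35 ± 0.078 (SE, n = 6, limma adjusted p = 0.0987), with an interval of 0.16 to 0.53, or 1.27-fold at base 2 and 1.42-fold with the natural logarithm. It ranked 253 of 14270. With array weights the difference was 0.30 and it was called (adjusted p = 0.0375), the only one of 17 alternatives in which it was.

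Because the L1 extract numbers recur, the gl8 values can be laid side by side by number. Number 1 read -0.02 on slides 1 to 6 against 0.46 on slides 13 to 18, and number 2 read -0.22 and 0.30. Numbers 3, 4 and 5 read 1.11, 0.94 and 0.79 on the first of these designs, against 0.40, 0.17 and 0.12. The numbers with the low values on the first design were not the low ones on the other, and 3 of the 5 shared numbers were higher on slides 1 to 6. The values are ratios, and L1 numbers 1 and 5 were set against different L2 numbers on the 2 designs. A low value can therefore not be placed on the L1 extract alone. Averaged over designs, the 7 L1 numbers had means from 0.04 to 0.76, with a mean of 0.46 (SD 0.248), and no test was made across the separately deposited tables. On slides 1 and 2, where gl8 was lowest, the 2 probes of the outer cell layer gene ocl1 read 0.84 and 1.18, and 1.03 and 0.82, so that gene was higher in L1 there. Both ocl1 probes are of the same cDNA, and ocl1 also served to read the sign of the ratios. Slide 1 joined L1 extract 1 with L2 extract 2, and slide 5 joined L1 extract 5 with L2 extract 6. Without slides 1 and 5 the gl8 difference was 0.77 (adjusted p = 0.315).

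**Figure D3:**
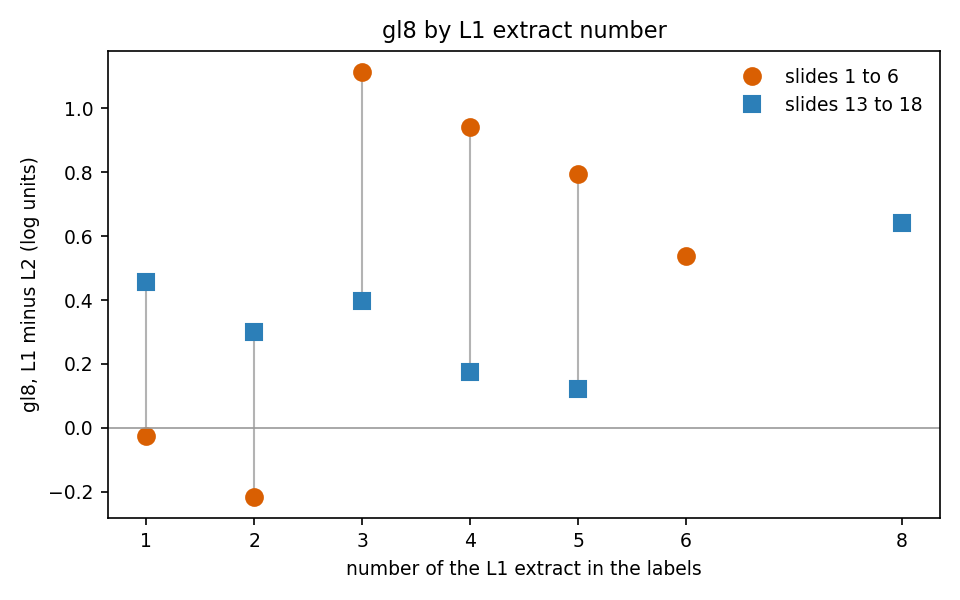
gl8, L1 minus L2 in log units, by the number of the L1 extract in the labels, on slides 1 to 6 (circles) and slides 13 to 18 (squares), each point 1 slide and lines joining the same number. Numbers 1 and 2 are lower on slides 1 to 6 (-0.02 and -0.22) than on slides 13 to 18 (0.46 and 0.30), and numbers 3, 4 and 5 are higher there.

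Ordered by size on slides 13 to 18, the differences ran from fps1 (0.75) through FAD8 (0.66), PLTP 2902 (0.43), gl8 (0.35) and PLTP 4515 (0.20) to PLTP 9307 (-0.04). The intervals of neighbours in this order overlapped, and differences between genes were not tested. The dye term was called for none of the 8 probes (limma adjusted p from 0.638 to 0.981). Over all probes it was called for 415 of 14401, 1 of 8991 and 0 of 14270 on slides 1 to 6, 7 to 12 and 13 to 18. The lack of a call is therefore no trait of these genes and does not show that they lack dye effects.

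The genes most like each probe were found by the smallest mean absolute difference of the slide values among single-gene probes of the same design (1094 for fps1, over 6 slides). For fps1 the nearest was FAD8 itself, at 0.166 log units per slide, followed by the homeobox gene knox8 (0.183) and the protein disulfide isomerase gene pdi2 (0.203). For FAD8 probe 14305 they were pdi2 (0.108), ccr2, a cinnamoyl-CoA reductase gene (0.123), and the dehydrin gene dhn-2 (0.127). For gl8 on slides 13 to 18 the second and the third nearest were rif1 (0.151) and ocl3 of the outer cell layer family (0.167). For PLTP probe 2902 the second and the third were atGRF2 (0.149) and ocl3 (0.155). On slides 1 to 6, gl8 had no close match: the nearest were a pair of lim1 probes (both 0.312) and the glutathione S-transferase gene gst19 (0.327). These are likenesses over 6 slides that share extracts and dyes, and carry no test.

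The lists of wax, lipid transfer, fatty acid and isoprenoid genes held 48 further probes with values, of 21 genes. Of these, 0 of 16, 0 of 17 and 0 of 15 were called higher in L1 on slides 1 to 6, 7 to 12 and 13 to 18, where 1.5%, 0.89% and 1.02% of all probes were, so that few if any calls would be found at the background rate. An unadjusted limma p under 0.05 was found for 5 of 16, 4 of 17 and 2 of 15, against 14.8%, 13.8% and 12.9% of all probes. The listed probes with an unadjusted limma p under 0.05 lay on both sides of 0 on slides 1 to 6 and 7 to 12. On slides 13 to 18 the probes under that limit, of an1 (-0.24) and fad6 (-0.19), lay below 0. The 2 called probes were lower in L1. Both were of isoprenoid genes, on slides 1 to 6. The gene an1, whose enzyme takes the first committed step of gibberellin synthesis, was at -0.67 ± 0.076 (SE, n = 6, limma adjusted p = 0.000897), and dxr, of the plastid pathway to isoprenoids, was at -0.34 ± 0.074 (adjusted p = 0.0390). Each was lower in L1 on 6 of 6 slides. Other probes of these genes were not called: an1 read -0.24 on slides 13 to 18, and dxr read -0.43 and 0.10 on slides 7 to 12 but 0.01 on slides 13 to 18.

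In the fatty acid list the medians were 0.03 (7 probes), -0.08 (7) and -0.12 (6) on slides 1 to 6, 7 to 12 and 13 to 18. The extremes were opr7 at 0.12 (its other probe at -0.11) and opr8 at -0.21 on slides 1 to 6, both oxophytodienoate reductase genes, aoc1, an allene oxide cyclase gene of jasmonate synthesis, at 0.45 and fad6 at -0.24 on slides 7 to 12, and fad7 at 0.01 and fad6 at -0.19 on slides 13 to 18. None of these was called (adjusted p from 0.184 to 0.961). In Arabidopsis FAD7 is the close relative of FAD8 with the same reaction. The maize probes named fad7 read 0.03 (slides 1 to 6), 0.01 and -0.00 (slides 13 to 18), where the FAD8 probes were at 0.66 (14305) and, on slides 7 to 12, -0.06 (9953).

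Among the isoprenoid genes the medians were 0.12 (8 probes), -0.11 (10) and -0.07 (8). The highest were DWF1, of sterol and brassinosteroid synthesis in Arabidopsis, at 0.42 on slides 1 to 6 (adjusted p = 0.146), and the sterol methyltransferase gene ESMT1 at 0.35 on slides 7 to 12 (adjusted p = 0.0565, 6 of 6 slides higher in L1) and 0.24 and 0.10 on slides 1 to 6 and 13 to 18. The second DWF1 probe on slides 1 to 6 was at -0.18, and the 4 on the other designs lay between -0.11 and -0.05. The squalene synthase gene sqs1, the step that draws farnesyl diphosphate into sterols, was at 0.02 on slides 1 to 6. Beyond gl8 the wax list had only fae1 (0.00 on slides 13 to 18), and beyond PLTP the lipid transfer list had only bap2 (0.13 on slides 1 to 6), whose place in that list is doubtful.

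**Figure D4:**
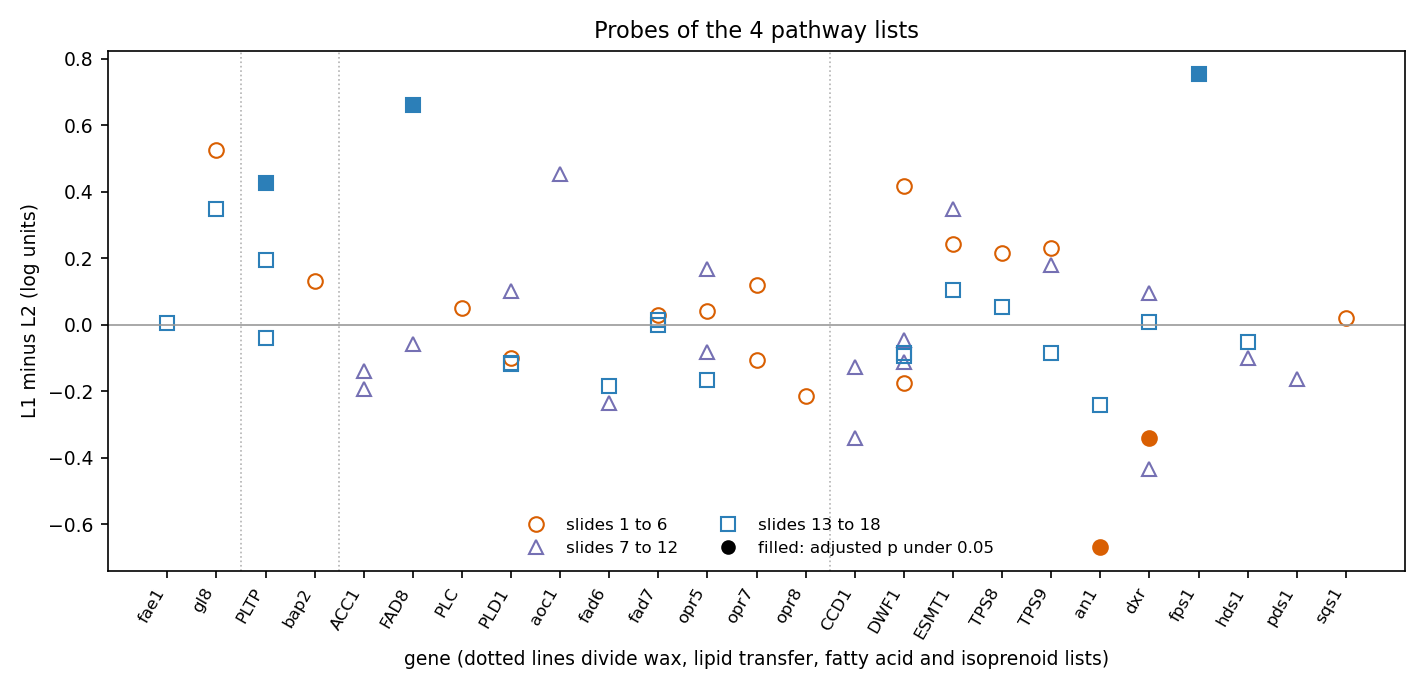
L1 minus L2 in log units for all probes with values of the wax, lipid transfer, fatty acid and isoprenoid lists, by gene, with circles, triangles and squares for the 3 array designs and filled symbols for an adjusted p under 0.05. The filled symbols above 0 are FAD8, fps1 and PLTP on slides 13 to 18, and those below 0 are an1 (-0.67) and dxr (-0.34) on slides 1 to 6.

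As a check of the layers, ocl1 was higher in L1 on all 4 of its probes (0.90 to 1.00, each called), which are all of the same cDNA. The gene kn1, a homeobox gene of the meristem interior, was between -1.72 and 0.02 on its 8 probes, with 5 called lower. These genes and ocl4 also served to read the sign. Not every gene of the layer lists followed. In the L1 and epidermis list 8 of 13 probes were called higher in L1. By design, in slide order, these were 3 of 5, 3 of 5 and 2 of 3, against 1.5%, 0.89% and 1.02% of all probes. All of these calls but those of ocl3 were of ocl1 or ocl4, which served to read the sign. The probes of ocl2 (0.00), 1 of the ocl4 probes (0.18), 1 of the ocl3 probes (-0.15) and cr4 (0.14 and -0.11) were not called. In the corpus list the 5 kn1 calls were the only ones among 14 probes, with knox3 at 0.17 and 0.11 and lg3 between -0.14 and -0.01. Among markers of other cells, photosynthetic genes were called on 0 of 5, 0 of 9 and 0 of 4 probes, with differences between -0.18 and 0.39. Genes of dividing cells were called on none of 14 probes (-0.08 to 0.06). Leaf primordium genes were called higher in L1 on 3 of 5, 2 of 5 and 3 of 8 probes, against 1.5%, 0.89% and 1.02% of all probes. Their differences lay between -0.36 and 2.12. The gene rs2 of this list went the other way on each design (-0.36, -0.20 and -0.32, none called). The higher leaf primordium values lie beside the higher fps1, FAD8 and PLTP values, and a link between them was not tested. The median r between slides labelled the same way, which share dye effects as well, was 0.451, 0.269 and 0.271 over the probes of each design before turning by dye, with a lowest of -0.051. Between slides labelled in opposite ways it was 0.026, -0.164 and -0.162. Within a slide, r between readings ran from 0.312 to 0.894. The number of slides limits the precision.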

How the data were processed

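The values are scores as deposited by the authors, read as log ratios of the 2 channels from their signs and from column medians between -0.0773 and 0.0597. No source used here gives their normalisation, log base or numerator dye. Each probe had a value in all 18 columns of its design (54 columns in all) or in none. For this work the 3 readings of a slide were averaged, turned to L1 over L2 by dye, and fitted per design with a layer and a dye term (limma 3.58.1, R 4.3.3, lmFit and eBayes, two-sided, tested on simulated data). The p-values measure the spread between 6 slides, which differ in L1 extract number. The same L2 number stands on slides 1 and 2, and another on both 5 and 6. Names came from the array annotation. 3 of the 13 probes (gl8, fps1) matched RefSeq of Zm-B73-REFERENCE-NAM-5.0 by gene number, while FAD8 and PLTP rest on that annotation alone. PLTP probes were compared by an exact sign-flip test. The genes and lists were chosen with earlier results of these data known. Of the lists, called probes and the highest and lowest probe per list and design are named, besides fad7, sqs1 and other probes of a named gene, which were chosen after their values were seen. The gene nearest to gl8 on slides 13 to 18 and to PLTP probe 2902 is not reported here. A keyword search of gene descriptions was not made, since the annotation used here holds none. Alternatives covered single slides, the dye term, readings, scaling between slides, weights, variance model and the set adjusted over. Plots used Python 3.11.15 with matplotlib 3.10.9.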

Additional observations from a re-analysis of the deposited data

How the results depend on the processing

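The calls of fps1 and of FAD8 probe 14305 held in all 17 alternatives. PLTP probe 2902 kept its direction but was not called from the L readings (0.19) or the H readings (0.54), or in 5 of the 6 fits that left out 1 slide (differences 0.38 to 0.49). For gl8 on slides 13 to 18 the fit with array weights added a call (0.30, adjusted p = 0.0375), and for gl8 on slides 1 to 6 none of 19 alternatives did (adjusted p from 0.0765 to 0.390). Signs turned only for 2 probes near 0 that were never called: FAD8 probe 9953, at 0.0175 from the M readings and 0.0175 from the median of the readings, and PLTP probe 9307, at 0.0426 from the M readings and between -0.0886 and 0.0399 when 1 slide was left out. From the H readings the PLTP probe pairs 2902 and 4515, and 2902 and 9307, differed by 0.44 and 0.61 (exact sign-flip test, adjusted p = 0.046875 for each). The cause of these changes was not tested. Probes of the 4 genes called on slides 13 to 18 numbered 2 to 4, and none was called on the other designs under any alternative listed. Over all probes, leaving out 1 slide gave 211 to 417, 38 to 65 and 88 to 231 calls against 409, 129 and 224, array weights gave 669, 174 and 625, the L readings 261, 82 and 79, and adjustment over single-gene probes, which tests fewer, 63, 27 and 43. On slides 1 to 6 there were 258 calls without the dye term, 577 with the L2 extract number as a block and 78 without slides 1 and 5. On slides 7 to 12 the H readings gave 76 and scaled slides 77. No paired analysis was possible because the 2 dye groups share no slide number, and each slide already pairs L1 with L2. Channel intensities were not used here, so how far each probe lay above background is unknown.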

Other observations

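The readings of a slide differed more for some probes than for others. The median range of the 3 readings was 0.064 for FAD8 probe 14305, 0.158 for fps1 and 0.116 and 0.167 for gl8, and it was 0.159 for FAD8 probe 9953 and 0.286, 0.400 and 0.634 for the PLTP probes. The widest single range, 1.23, was that of FAD8 probe 9953 on slide 12, and the next, 1.13, that of PLTP probe 4515 on slide 16, where L was -0.18 and M 0.94.

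On slides 13 to 18, PLTP probe 4515 was nearest to rif1 (0.147), CP22 (0.148) and nfd110 (0.156), and on slides 7 to 12 FAD8 probe 9953 was nearest to DWF1 among probes with a gene name, at 0.0917. The 3 probes nearest to fps1 and the 3 nearest to FAD8 probe 14305 were each called higher in L1, with differences from 0.56 to 0.70. They were picked for slide values close to those of these 2 called probes, so their calls are no separate result. The gene pdi2 is in both sets, and FAD8 probe 14305 is itself in the set of fps1.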
